A study of Mus musculus with 12 samples.

Results

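The genes described are those of respiratory complex I whose platform symbol begins with Nduf: the nuclear genes for subunits of the Ndufa, Ndufb, Ndufc, Ndufs and Ndufv series and for the Ndufaf assembly factors. They were chosen by that symbol alone, on probe sets annotated with 1 gene symbol, which gave 44 of the 18193 genes so annotated on the array. Each gene was represented by its probe set with the highest mean log2 intensity over 12 arrays. By role, 6 encode core subunits, 28 accessory subunits and 8 assembly factors, and the other 2 are Ndufa4 and Ndufa4l2, which keep the family's name.

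The arrays measured mRNA of in vitro matured CF1 mouse eggs at metaphase of meiosis II. Full-grown oocytes received the siRNA by injection, were kept for 20 h in CZB medium with milrinone, an inhibitor that holds meiosis, and matured for 18 h without it. The 4 groups were Dcp1a+Dcp2 siRNA (the mixture of both pools), Dcp1a siRNA, Dcp2 siRNA and control siRNA, with 3 independent biological replicates each and 30 eggs per array. Dcp2 is the enzyme that removes the 5′ cap of mRNA and Dcp1a its cofactor, and the series asked what their loss does to the transcripts of the maturing oocyte. Each reagent is a SMARTpool, a mixture of several siRNAs against 1 gene. Culture was the same for control siRNA eggs. Every value is of a pool, so fewer eggs holding a transcript and less transcript per egg cannot be told apart.

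Complex I is the entry point of the mitochondrial respiratory chain. Its peripheral arm takes electrons from NADH through a flavin and a row of iron-sulfur clusters to ubiquinone, and its membrane arm pumps protons. The core subunits carry out this chemistry, the accessory subunits surround and stabilise them, and assembly factors join the modules and then leave. Oocytes and eggs make most of their ATP by oxidative phosphorylation, largely from pyruvate, and full-grown oocytes do this on stored mRNA because they hardly transcribe.

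As an example of the genomic context, the promoters of 4 members are shown: the 3 with the largest fitted change after both siRNAs, and Ndufa10, the brightest member that did not pass the test. They are RefSeq sequences of GRCm38.p6, 300 bases on the gene's strand from 250 before to 50 after the start. Ndufs8 lies at chr19:3912725-3913024 (minus strand), Ndufs7 at chr10:80249199-80249498 (plus), Ndufa9 at chr6:126849095-126849394 (minus) and Ndufa10 at chr1:92473709-92474008 (minus). Capitals mark matches to any of the 8 patterns listed further on.
Ndufs8: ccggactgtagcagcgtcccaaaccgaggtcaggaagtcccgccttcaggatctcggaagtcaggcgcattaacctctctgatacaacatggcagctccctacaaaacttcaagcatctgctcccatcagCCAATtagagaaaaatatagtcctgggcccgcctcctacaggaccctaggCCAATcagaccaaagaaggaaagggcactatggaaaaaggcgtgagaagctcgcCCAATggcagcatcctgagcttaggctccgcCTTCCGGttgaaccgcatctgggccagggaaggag
Ndufs7: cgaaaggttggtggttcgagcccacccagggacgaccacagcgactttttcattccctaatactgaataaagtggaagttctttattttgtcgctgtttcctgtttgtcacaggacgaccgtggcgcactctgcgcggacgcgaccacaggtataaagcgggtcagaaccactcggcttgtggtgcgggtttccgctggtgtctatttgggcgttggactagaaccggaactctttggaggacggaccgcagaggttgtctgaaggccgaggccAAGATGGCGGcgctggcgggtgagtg
Ndufa9: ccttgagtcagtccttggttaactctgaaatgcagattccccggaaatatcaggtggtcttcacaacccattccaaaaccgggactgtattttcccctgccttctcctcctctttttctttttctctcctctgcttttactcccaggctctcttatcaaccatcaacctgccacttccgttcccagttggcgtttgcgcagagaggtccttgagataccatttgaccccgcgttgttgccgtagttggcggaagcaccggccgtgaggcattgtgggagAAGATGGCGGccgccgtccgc
Ndufa10: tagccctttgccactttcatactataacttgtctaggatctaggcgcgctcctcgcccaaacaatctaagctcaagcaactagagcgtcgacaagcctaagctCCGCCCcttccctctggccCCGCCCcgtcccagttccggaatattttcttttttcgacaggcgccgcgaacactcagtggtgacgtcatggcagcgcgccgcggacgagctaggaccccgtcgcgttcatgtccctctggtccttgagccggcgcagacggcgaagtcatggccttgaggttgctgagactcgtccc

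Intensities are GCRMA values with a floor of 4.9 units, and 55.6% of all values on the 12 arrays were at or under 5 units. The siRNAs lowered their targets. Dcp1a read 518, 1233 and 622 units in Dcp1a+Dcp2 siRNA eggs, 1208, 589 and 1236 in Dcp1a siRNA eggs, 7449, 10248 and 6397 in Dcp2 siRNA eggs and 12427, 5385 and 8083 in control siRNA eggs. Dcp2 was at the floor, 4.9 to 5 units, on every array that had received its siRNA, and between 30.4 and 81.8 on the 6 others. Against control both fell in Dcp1a+Dcp2 siRNA eggs (limma adjusted p = 0.000666 for Dcp1a and 0.000378 for Dcp2), Dcp1a fell in Dcp1a siRNA eggs (0.0319) and Dcp2 in Dcp2 siRNA eggs (0.0152). The egg's markers were present: the summed intensity of 10 oocyte markers was 139957 to 144154 in Dcp1a+Dcp2 siRNA eggs and 92525 to 123366 in control siRNA eggs, and Zp2 and Zp3 were called higher. Of 14 cumulus and granulosa markers, 7 or 8 were at or under 5 units on each array, and their sum was 1299 to 1562 in Dcp1a+Dcp2 siRNA eggs, 2430 to 2514 in Dcp1a siRNA eggs, 1748 to 2668 in Dcp2 siRNA eggs and 1611 to 2217 in control siRNA eggs. That sum was almost entirely Nr5a2, which read 1203 to 1474 in Dcp1a+Dcp2 siRNA eggs, 2324 to 2418 in Dcp1a siRNA eggs, 1663 to 2580 in Dcp2 siRNA eggs and 1499 to 2131 in control siRNA eggs, while each other marker read at most 47.8 on any array. The part of these markers in the results below was not tested. Control siRNA replicate 1 correlated more closely with the Dcp1a siRNA arrays (r 0.978 to 0.988) than with its own group (0.938 to 0.954), and Dcp2 siRNA replicate 2 did likewise, so results that rest on them are given with and without both. Control siRNA replicates 2 and 3 leaned the same way, but with overlapping ranges. Replicate 2 had r 0.958 to 0.972 with the Dcp1a siRNA arrays and 0.954 to 0.967 with its own group. Replicate 3 had 0.958 to 0.970 and 0.938 to 0.967.

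A probe set was tested when its log2 intensity exceeded 5, about 32 units, on at least 3 of the 12 arrays. Of the 44 Nduf genes, 34 passed and 10 did not. The 10 were Ndufs1, a core subunit with iron-sulfur clusters, the accessory subunits Ndufa7, Ndufb1, Ndufb4 and Ndufs5, the assembly factors Ndufaf1, Ndufaf3, Ndufaf5 and Ndufaf6, and Ndufa4l2. In 9 of them every array lay at or under log2 5. Ndufa7 was the exception, with 27.1, 94.1 and 28.9 units in Dcp1a+Dcp2 siRNA eggs and 7.3, 7.4 and 14.6 in control siRNA eggs. Ndufs8, Ndufa9 and Ndufb10 passed only through the Dcp1a+Dcp2 siRNA arrays. A gene that passes in this way had to differ between the groups.

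After both siRNAs, 12 of the 34 tested Nduf genes were higher than in control siRNA eggs and 0 were lower (limma, adjusted p under 0.05, group means over all 12 arrays). Over all 6996 tested genes the corresponding shares were 6.78% higher and 1.64% lower. The 12 were 3 core subunits, 4 accessory subunits of the peripheral arm and 5 of the membrane arm. Without Ndufs8, Ndufa9 and Ndufb10 the count was 9 of 31. No assembly factor passed the test, 0 of 4. With 6.78% of all tested genes higher, so few genes cannot set this role apart. The median log2 change was 0.61 over the tested members, with 26 of 34 above 0, and 0.37 over all 44, with 31 above 0. Over all tested genes it was 0.00, with 3507 of 6996 above 0. Over all 18193 genes, tested or not, it was 0, with 6385 above 0.

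**Figure D1:**
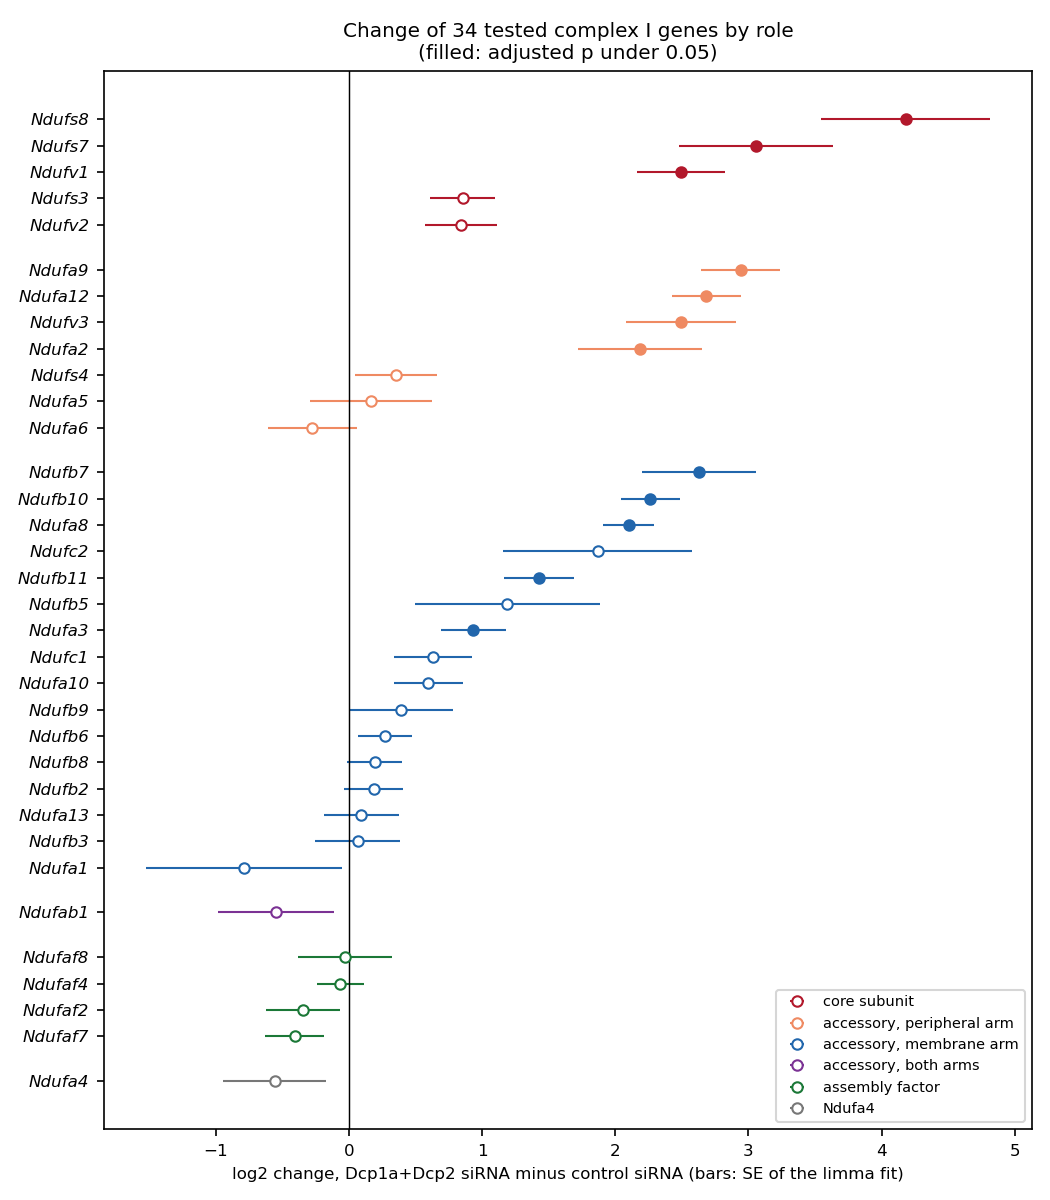
Log2 change of the 34 tested complex I genes, Dcp1a+Dcp2 siRNA minus control siRNA, ordered by role from core subunits at the top to assembly factors and Ndufa4 at the bottom; bars are standard errors of the limma fit and filled points have an adjusted p under 0.05. The 12 filled points lie between 0.93 and 4.18, with Ndufs8, Ndufa9 and Ndufb10 drawn at fitted changes although their controls lay mostly under the log2 minimum, and the 4 assembly factors lie between -0.41 and -0.03.

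The 2 members with the largest fitted change were the core subunits Ndufs8 and Ndufs7, iron-sulfur proteins next to the site where ubiquinone is reduced. Ndufs8 read 277, 390.1 and 169.7 in Dcp1a+Dcp2 siRNA eggs, 8.7, 8.4 and 8.4 in Dcp1a siRNA eggs, 33.3, 8.5 and 14.5 in Dcp2 siRNA eggs and 8.5, 8.5 and 42.5 in control siRNA eggs. In units of intensity, Ndufs7 gave 855, 1406 and 558 in Dcp1a+Dcp2 siRNA eggs, 59.6, 79.7 and 59.6 in Dcp1a siRNA eggs, 117, 61.5 and 81.9 in Dcp2 siRNA eggs and 62.1, 59 and 318 in control siRNA eggs. For both genes the 3 Dcp1a+Dcp2 siRNA arrays were above all 9 others, and control siRNA replicate 3 was the highest control. Ndufs8 was at least 7.49-fold higher in Dcp1a+Dcp2 siRNA eggs than in control siRNA eggs (adjusted p = 0.00255), a bound because the control mean lay under log2 5. Ndufs7 was 8.32-fold higher, a log2 change of 3.06 ± 0.58 (SE, n = 3 each, limma adjusted p = 0.00858).

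Ndufv1 holds the flavin and the NADH site, where electrons enter the complex. Ndufv1 read 499, 698 and 380 in Dcp1a+Dcp2 siRNA eggs, 85.7, 92.1 and 61 in Dcp1a siRNA eggs, 42.2, 58.4 and 98.6 in Dcp2 siRNA eggs and 100.2, 73.3 and 101 in control siRNA eggs. The Dcp1a+Dcp2 siRNA arrays stood apart from all others, and the log2 change against control was 2.49 ± 0.33 (limma adjusted p = 0.00114). Ndufv2, its iron-sulfur partner, and Ndufs3, a core subunit without a cluster, were just outside the threshold. Ndufv2 gave 950, 1055 and 822 in Dcp1a+Dcp2 siRNA eggs, 380, 431 and 384 in Dcp1a siRNA eggs, 419.5, 483 and 317 in Dcp2 siRNA eggs and 409, 425 and 824 in control siRNA eggs. The Dcp1a+Dcp2 siRNA arrays were the 3 highest for Ndufv2 except that 1 of them lay just under control siRNA replicate 3, and the log2 change was 0.84 ± 0.27 (adjusted p = 0.0806, limma). Ndufs3 gave 135, 192 and 168 in Dcp1a+Dcp2 siRNA eggs, 71.2, 66 and 57.5 in Dcp1a siRNA eggs, 82.3, 62.8 and 71.7 in Dcp2 siRNA eggs and 129, 69.4 and 82.5 in control siRNA eggs. For Ndufs3 the 3 Dcp1a+Dcp2 siRNA arrays exceeded the other 9, with a log2 change of 0.85 ± 0.24 (limma adjusted p = 0.0535). Ndufs3 passed the threshold without control siRNA replicate 1 and Dcp2 siRNA replicate 2, at 1.11 (limma adjusted p = 0.00528). Control siRNA replicate 1 was its highest control, so leaving it out had to raise the change. In that setting 17.8% of all tested probe sets were called higher. Ndufs3 was called in 6 of 26 alternative settings.

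Among accessory subunits of the peripheral arm, 4 of 7 rose (6.78% of all tested genes). They include Ndufa9, which was tested only through the Dcp1a+Dcp2 siRNA arrays. Ndufa9 sits beside the ubiquinone site at the junction of the arms. Ndufa9 read 244, 297 and 246 in Dcp1a+Dcp2 siRNA eggs, 30.7, 28.6 and 35.1 in Dcp1a siRNA eggs, 28.6, 22.9 and 24.6 in Dcp2 siRNA eggs and 28.8, 22.9 and 59.6 in control siRNA eggs. It was at least 6.63-fold higher in Dcp1a+Dcp2 siRNA eggs than in control siRNA eggs (adjusted p = 0.000219, limma). Ndufa12 takes the place of its relative, the assembly factor Ndufaf2, late in assembly. Ndufa12 gave 341, 392 and 274 in Dcp1a+Dcp2 siRNA eggs, 52.7, 46.8 and 50.9 in Dcp1a siRNA eggs, 46.4, 54.5 and 42.4 in Dcp2 siRNA eggs and 36.9, 47.5 and 78.7 in control siRNA eggs. Its log2 change was 2.68 ± 0.26, or 6.43-fold (limma adjusted p = 0.000165), and the groups did not overlap. Ndufaf2 itself, among the brightest members, read 5494, 4676 and 3300.1 in Dcp1a+Dcp2 siRNA eggs, 5684, 5630.4 and 4480.5 in Dcp1a siRNA eggs, 7593, 4976 and 5109.8 in Dcp2 siRNA eggs and 6123, 7147 and 3966 in control siRNA eggs, and its log2 change of -0.34 ± 0.28 did not pass the test (adjusted p = 0.415).

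Ndufv3 and Ndufa2 belong to the module that oxidises NADH. Ndufv3 gave 778, 959.9 and 422 in Dcp1a+Dcp2 siRNA eggs, 86.5, 99.1 and 135 in Dcp1a siRNA eggs, 238, 164 and 140.2 in Dcp2 siRNA eggs and 66.6, 137 and 192 in control siRNA eggs. Ndufa2 gave 1104, 1043 and 1085 in Dcp1a+Dcp2 siRNA eggs, 198, 207 and 207 in Dcp1a siRNA eggs, 200.3, 159.8 and 98.1 in Dcp2 siRNA eggs and 113, 211 and 559 in control siRNA eggs. Every Dcp1a+Dcp2 siRNA array lay above every other array for both genes, and the Ndufa2 controls were spread widely. The log2 changes were 2.49 ± 0.41 for Ndufv3 (adjusted p = 0.0042) and 2.18 ± 0.46 for Ndufa2 (adjusted p = 0.0155, limma). The other 3 tested members of this role did not pass: Ndufs4, an accessory subunit whose loss gives a mouse model of Leigh syndrome, had a log2 change of 0.35 ± 0.31, Ndufa5 of 0.16 ± 0.46 and Ndufa6 of -0.27 ± 0.34. Ndufs4 gave 144, 173 and 125 in Dcp1a+Dcp2 siRNA eggs, 122, 125 and 109 in Dcp1a siRNA eggs, 126, 109 and 196 in Dcp2 siRNA eggs and 167, 125 and 71.6 in control siRNA eggs. Its groups overlapped.

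Of 16 tested accessory subunits of the membrane arm, 5 rose and 0 fell (6.78% and 1.64% of all tested genes). Those that rose include Ndufb10, which was tested only through the Dcp1a+Dcp2 siRNA arrays. Ndufb7, Ndufb10 and Ndufa8 are proteins of the intermembrane space held by paired disulfide bonds. Ndufb7 gave 523, 687 and 406 in Dcp1a+Dcp2 siRNA eggs, 42.4, 38.5 and 44.2 in Dcp1a siRNA eggs, 87.2, 89.6 and 80.9 in Dcp2 siRNA eggs and 35.9, 114 and 151 in control siRNA eggs. Ndufb10 gave 116, 118 and 144 in Dcp1a+Dcp2 siRNA eggs, 26.4, 28.6 and 25 in Dcp1a siRNA eggs, 35.1, 25.8 and 24.6 in Dcp2 siRNA eggs and 19.8, 26.4 and 34 in control siRNA eggs. Ndufa8 gave 219, 260.3 and 209.8 in Dcp1a+Dcp2 siRNA eggs, 70.2, 59.8 and 75 in Dcp1a siRNA eggs, 71.3, 56.8 and 71.3 in Dcp2 siRNA eggs and 56.7, 43.5 and 61.4 in control siRNA eggs. In all 3 genes every Dcp1a+Dcp2 siRNA array exceeded every other array. Ndufb7 rose by 2.63 ± 0.43 on the log2 scale (limma adjusted p = 0.00397) and Ndufa8 by 2.10 ± 0.19 (adjusted p = 0.000112), the lowest adjusted p of any Nduf gene. Ndufb10 was at least 3.84-fold higher (adjusted p = 0.000186).

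Ndufb11, an X-linked subunit of the distal pump module, was the 1 called gene among the 5 brightest members. Ndufb11 read 4675, 5693 and 4410.4 in Dcp1a+Dcp2 siRNA eggs, 1312, 1513 and 1223 in Dcp1a siRNA eggs, 2259, 1494 and 2447 in Dcp2 siRNA eggs and 1264, 2044 and 2335 in control siRNA eggs. Its log2 change was 1.43 ± 0.26, 2.69-fold (limma adjusted p = 0.0073). Ndufa3 gave 328, 274 and 226 in Dcp1a+Dcp2 siRNA eggs, 192, 176 and 200.5 in Dcp1a siRNA eggs, 162, 145 and 201 in Dcp2 siRNA eggs and 103, 147 and 194 in control siRNA eggs. Ndufa3, a small subunit at the base of the membrane arm, had the smallest called change, 0.93 ± 0.24 (adjusted p = 0.0384), and it kept its call in 12 of 26 alternative settings. For Ndufc2, which anchors the membrane arm, control siRNA replicate 3 stood far from its group. Ndufc2 gave 1091, 1104 and 1111 in Dcp1a+Dcp2 siRNA eggs, 161, 220.4 and 198 in Dcp1a siRNA eggs, 359, 186 and 114 in Dcp2 siRNA eggs and 104, 224 and 1189 in control siRNA eggs. The other control arrays lay far under the Dcp1a+Dcp2 siRNA arrays while replicate 3 lay above them, and the log2 change of 1.87 ± 0.71 did not pass (adjusted p = 0.126). Ndufb5 had the same pattern, with 250.4, 191 and 300.2 in Dcp1a+Dcp2 siRNA eggs, 54.8, 60.7 and 65 in Dcp1a siRNA eggs, 63.5, 58.8 and 15.4 in Dcp2 siRNA eggs and 50.5, 66.1 and 363 in control siRNA eggs.

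**Figure D2:**
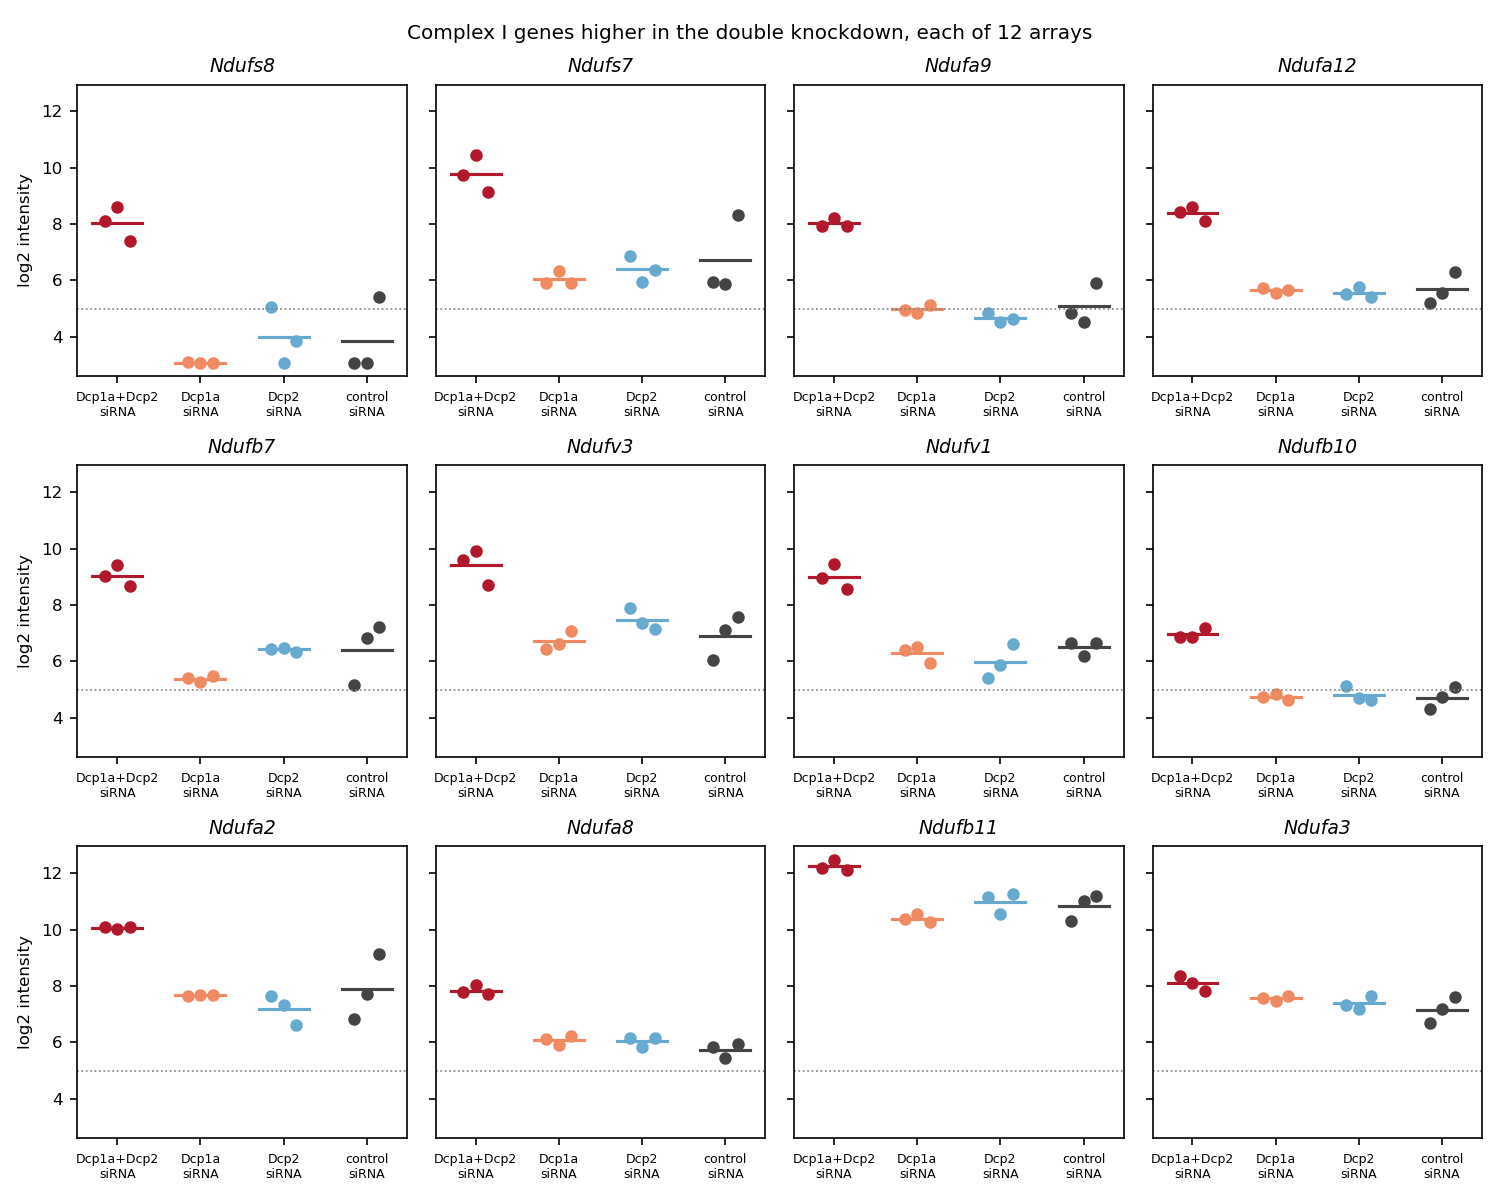
Log2 intensity of the 12 called complex I genes on each of the 12 arrays, by siRNA group, with bars at the group means and a dotted line at the log2 minimum of 5. In all 12 panels the 3 Dcp1a+Dcp2 siRNA arrays lie above the other 9, and control siRNA replicate 3 is the highest control. Ndufs8, Ndufa9 and Ndufb10 were tested only through the Dcp1a+Dcp2 siRNA arrays and so had to differ.

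Other bright members of the membrane arm did not pass the test. Ndufa10, the brightest of all, read 10094, 11430.1 and 8489.8 in Dcp1a+Dcp2 siRNA eggs, 8679, 7799.6 and 8214 in Dcp1a siRNA eggs, 10098, 7418 and 11144 in Dcp2 siRNA eggs and 9694, 6141 and 4778 in control siRNA eggs, with control siRNA replicate 1 inside the range of the Dcp1a+Dcp2 siRNA arrays and a log2 change of 0.59 ± 0.26 (adjusted p = 0.168). Ndufb6 read 6441, 7061 and 5384 in Dcp1a+Dcp2 siRNA eggs, 4265, 3827 and 3483 in Dcp1a siRNA eggs, 7931, 5208 and 5995 in Dcp2 siRNA eggs and 5722, 5505 and 4423 in control siRNA eggs, a change of 0.27 ± 0.20 (adjusted p = 0.382). Ndufc1 gave 592, 676 and 454 in Dcp1a+Dcp2 siRNA eggs, 260.5, 308 and 253 in Dcp1a siRNA eggs, 364, 209.6 and 277 in Dcp2 siRNA eggs and 254, 357 and 541 in control siRNA eggs. Its Dcp1a+Dcp2 siRNA and control siRNA arrays overlapped. The log2 changes of the members of this role that did not pass included Ndufc1 at 0.63, Ndufb9 at 0.39, Ndufb8 at 0.19, Ndufb2 at 0.19, Ndufa13 at 0.09, Ndufb3 at 0.06 and Ndufa1 at -0.79 on the log2 scale.

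Of the tested members, 8 had a change below 0, and 0 of them passed the test. Ndufa1, a membrane-arm subunit, had the lowest value and a wide spread. Ndufa1 read 880.1, 528 and 998 in Dcp1a+Dcp2 siRNA eggs, 1361, 2062 and 1645 in Dcp1a siRNA eggs, 987, 1473 and 193 in Dcp2 siRNA eggs and 517, 1589 and 2898 in control siRNA eggs. The control arrays spanned the whole range of the Dcp1a+Dcp2 siRNA arrays (log2 change -0.79 ± 0.74, adjusted p = 0.485). Ndufab1, the mitochondrial acyl carrier protein that occurs in both arms and also serves fatty acid synthesis, read 564, 296 and 838 in Dcp1a+Dcp2 siRNA eggs, 856, 1002 and 1026 in Dcp1a siRNA eggs, 417, 729.7 and 243 in Dcp2 siRNA eggs and 567, 729.7 and 1056 in control siRNA eggs. Ndufa4, now known as a component of cytochrome c oxidase, read 452, 263 and 453 in Dcp1a+Dcp2 siRNA eggs, 476, 667 and 552 in Dcp1a siRNA eggs, 409, 558 and 204 in Dcp2 siRNA eggs and 371, 632 and 733 in control siRNA eggs. Their log2 changes were -0.55 ± 0.44 for Ndufab1 (adjusted p = 0.412) and -0.56 ± 0.39 for Ndufa4 (adjusted p = 0.348). Ndufa6, with 119, 86 and 148 in Dcp1a+Dcp2 siRNA eggs, 114, 145 and 127 in Dcp1a siRNA eggs, 119.7, 134 and 59 in Dcp2 siRNA eggs and 98.3, 158 and 171 in control siRNA eggs, also overlapped.

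The 4 tested assembly factors were all in this set. Ndufaf4, an early factor and next in brightness to Ndufa10, read 5363, 5333 and 6150.3 in Dcp1a+Dcp2 siRNA eggs, 6482, 5999 and 7026 in Dcp1a siRNA eggs, 4084, 4887 and 3632 in Dcp2 siRNA eggs and 4917, 6194 and 6600.1 in control siRNA eggs, a log2 change of -0.06 ± 0.18 (adjusted p = 0.83). Ndufaf7, which in human cells methylates a core subunit, read 153, 172 and 142 in Dcp1a+Dcp2 siRNA eggs, 254, 172 and 189 in Dcp1a siRNA eggs, 158, 138 and 206 in Dcp2 siRNA eggs and 186, 182 and 255 in control siRNA eggs. The Dcp1a+Dcp2 siRNA and control siRNA arrays did not overlap, but the change of -0.41 ± 0.22 did not pass (adjusted p = 0.244). Ndufaf8, in human cells the partner of Ndufaf5, read 364, 323 and 458 in Dcp1a+Dcp2 siRNA eggs, 404, 432 and 412 in Dcp1a siRNA eggs, 256, 372 and 145 in Dcp2 siRNA eggs and 239, 473 and 508 in control siRNA eggs, a change of -0.03 ± 0.36. The median change of the 4 was -0.20, of the 5 core subunits 2.49 and of the 24 accessory subunits 0.61. Of these 24, 9 rose (6.78% of all tested genes). Over all members on the array, tested or not, the medians were -0.02 for assembly factors, 1.67 for core and 0.50 for accessory subunits. The tested core subunits include Ndufs8 and the accessory ones Ndufa9 and Ndufb10, which were tested only through the Dcp1a+Dcp2 siRNA arrays. Ndufaf2 and Ndufaf4 had means above log2 11 over the single-siRNA arrays, a range where 1.07% of all tested genes were higher. Differences between the roles were not tested.

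By position of the arrays alone, the groups did not overlap in 13 members with the Dcp1a+Dcp2 siRNA arrays higher (13.6% of all tested genes) and in 1 member, Ndufaf7, with them lower (11.4% of all tested genes). In the same 13, the 12 called genes and Ndufs3, the Dcp1a+Dcp2 siRNA arrays exceeded all 9 others (8.81% of all tested genes). Among these, Ndufs8, Ndufa9 and Ndufb10 were tested only through the Dcp1a+Dcp2 siRNA arrays. They entered the test by being high there, so their separation is no evidence. Control siRNA replicate 3 was the highest control in 27 of the 34 members and replicate 1 the lowest in 23. The mean level of the tested members, centred per gene over 12 arrays, was 0.73 to 0.94 log2 units on the Dcp1a+Dcp2 siRNA arrays, -0.39 to -0.27 on the Dcp1a siRNA arrays, -0.59 to -0.11 on the Dcp2 siRNA arrays, and -0.59, -0.20 and 0.34 on the controls. Without control siRNA replicate 3 the count of called members was 15, all higher (7.61% of all tested probe sets higher). Without control siRNA replicate 1 and Dcp2 siRNA replicate 2 it was 14, where the share of all tested probe sets called higher was 17.8%, against 6.62% with all arrays.

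Neither siRNA alone gave a called Nduf gene against control. For Dcp1a siRNA the count was 0 of 34 (limma; 0.0286% of all tested genes higher and 0.0286% lower), and 1 member, Ndufb7, had an unadjusted p under 0.05 (4.9% of all tested genes). Changes ran from -1.03 to 0.40 with a median of -0.15, and 24 of 34 were below 0. Over all 6996 tested genes the median was 0.10, and 4414 were above 0. For Dcp2 siRNA the count was also 0 of 34 (0% of all tested genes higher and 0.0286% lower), and 2 members, Ndufa13 and Ndufaf4, had an unadjusted p under 0.05 (10.5% of all tested genes). Changes ran from -1.47 to 0.64 with a median of -0.32, and 20 of 34 were below 0. Over all 6996 tested genes the median was -0.08, and only 2959 were above 0, so this sign count is near that of all genes. Under median centring the medians were -0.27 for Dcp1a siRNA and -0.15 for Dcp2 siRNA.

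These counts were not the same without the 2 arrays that stood apart. Without control siRNA replicate 1 and Dcp2 siRNA replicate 2, Ndufb7 fell by 1.65 on the log2 scale in Dcp1a siRNA eggs against control siRNA eggs (limma adjusted p = 0.0156), where 0.75% of all tested probe sets were called lower and 4.66% higher. In the same setting 6 members passed for Dcp2 siRNA against control, with Ndufa10 higher (0.97) and Ndufa1 (-2.30), Ndufab1 (-1.46), Ndufaf8 (-1.35), Ndufa4 (-1.24) and Ndufaf4 (-0.73) lower (adjusted p from 0.0186 to 0.0491). Over the array that setting called 1018 probe sets higher and 1401 lower for Dcp2 siRNA (8.78% and 12.1%), against 0 and 2 with all arrays. In that setting Ndufa10 was also called higher after both siRNAs (0.87, adjusted p = 0.0108), and the other 5 were not called there.

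Set against each single siRNA, the double injection gave called genes as well. These comparisons share the Dcp1a+Dcp2 siRNA arrays with the one against control. Ndufs8, Ndufa9 and Ndufb10 were tested only through those arrays and so had to differ in both comparisons. Their part in the counts that follow, and that of Ndufs8 among the core subunits, is no evidence. Against Dcp1a siRNA, 16 of 34 members were higher and 0 lower (8.18% and 3.3% of all tested genes). They included all 5 tested core subunits: Ndufs8 was at least 8.24-fold higher, Ndufs7 rose by 3.74 ± 0.58, Ndufv1 by 2.70 ± 0.33, Ndufs3 by 1.34 ± 0.24 and Ndufv2 by 1.24 ± 0.27 on the log2 scale. Ndufb7 rose by 3.66 ± 0.43 (limma adjusted p = 0.000393), Ndufc2 by 2.53 ± 0.71 (adjusted p = 0.0411), Ndufc1 by 1.05 ± 0.29 and Ndufb6 by 0.70 ± 0.20 (adjusted p = 0.0458). Arrays did not overlap in 21 members with the double injection higher and in 4 with it lower (22.7% and 26.3% of all tested genes).

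Against Dcp2 siRNA, 14 of 34 members were higher and 0 lower (5.87% and 0.272% of all tested genes), again with all 5 tested core subunits. Ndufs8 was at least 8.13-fold higher, Ndufs7 rose by 3.38 ± 0.58 and Ndufv1 by 3.03 ± 0.33 (limma adjusted p = 0.000293). Ndufb5 passed here, at 2.65 ± 0.69 (adjusted p = 0.046), where Dcp2 siRNA eggs read 63.5, 58.8 and 15.4 units. Ndufa3 passed neither comparison with a single siRNA. Arrays did not overlap in 20 members with the double injection higher and in 0 with it lower (16% and 4.97% of all tested genes).

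**Figure D3:**
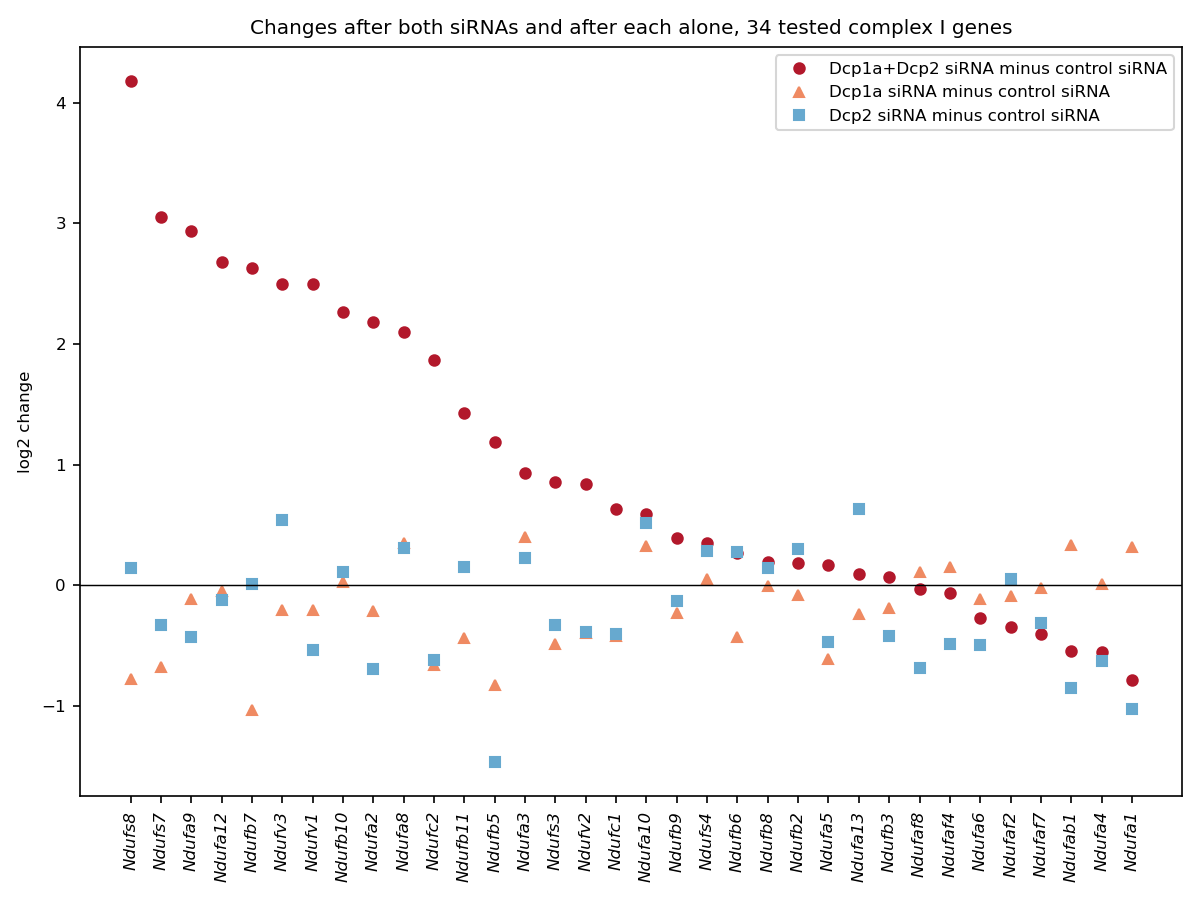
Log2 change against control siRNA of the 34 tested complex I genes after both siRNAs (circles), Dcp1a siRNA (triangles) and Dcp2 siRNA (squares), ordered by the change after both; the 3 comparisons share the control arrays. For the 12 called genes the circles lie at 0.93 or more, while the triangles lie between -1.03 and 0.40 and the squares between -0.69 and 0.54.

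The interaction term asks whether the change after both siRNAs differs from the sum of the single changes. The term was above 0 in 27 of 34 members, and in 2882 of all 6996 tested genes. It passed the test in 12 members, all above 0 (3.7% of all tested genes, with 0.0572% below 0). Without Ndufs8, Ndufa9 and Ndufb10, which were tested only through the Dcp1a+Dcp2 siRNA arrays, the count was 9 of 31. The departure was 4.07 ± 0.82 for Ndufs7, 3.24 ± 0.46 for Ndufv1, 1.67 ± 0.34 for Ndufs3 and 1.62 ± 0.38 for Ndufv2 on the log2 scale (limma adjusted p from 0.00379 to 0.0395). Accessory subunits that passed were Ndufb7 at 3.65, Ndufa2 at 3.10, Ndufa12 at 2.85, Ndufb11 at 1.71 and Ndufa8 at 1.44. Ndufs8, Ndufa9 and Ndufb10 passed as well, but their single-siRNA and control values lay mostly under 32 units, so no size is given for them. Ndufv3 (2.15, adjusted p = 0.0752) and Ndufa3 (0.30) did not pass. Without the filter on low values 4 members passed, all above 0 (0.344% of all probe sets). With single arrays left out, the count ran from 7 to 16 and so varied over 1.5 times (2.17% to 4.71% of all tested probe sets above 0). The lowest came without Dcp1a siRNA replicate 3 or Dcp1a+Dcp2 siRNA replicate 2. Without control siRNA replicate 1 and Dcp2 siRNA replicate 2 the counts of members higher were 16 against Dcp1a siRNA, 14 against Dcp2 siRNA and 16 above 0 for the interaction (11%, 5.98% and 4.89% of all tested probe sets).

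Probe sets gave a further look at the same transcripts. The 44 genes have 88 single-symbol probe sets, of which 53 were tested, and 14 genes had more than 1 tested. In the 5 called genes among these, Ndufs8, Ndufa12, Ndufv1, Ndufb11 and Ndufa3, there were 13 tested probe sets. Of these, 3 of Ndufs8 and 2 of Ndufa12 were tested only through the Dcp1a+Dcp2 siRNA arrays and so had to differ. The other 8, on the same arrays and including the 4 already described, were all higher after both siRNAs than in controls (6.62% of all tested probe sets). The representative probe sets of Ndufs8, Ndufa12, Ndufv1 and Ndufa3 carry the platform's x suffix, which marks probes that may bind other transcripts. On a probe set without it Ndufv1 changed by 2.20 and Ndufa3 by 1.15 on the log2 scale, and both passed. The probe sets of Ndufs8 and Ndufa12 without it were at least 5.55-fold and at least 1.83-fold higher in Dcp1a+Dcp2 siRNA eggs than in control siRNA eggs. Both read under 32 units on all 9 arrays that had not received both siRNAs, and they lend the calls no support. This probe set of Ndufa12 and the only single-symbol probe set of Ndufa2 carry another suffix, s, and their specificity was not tested. Of the 14 genes, 10 had changes of 1 sign and 4 did not: Ndufb6 (0.27 and -0.09), Ndufc1 (0.63 and -0.51), Ndufc2 (1.87 and -0.03) and Ndufs4 (0.35, 0.19 and -0.70). In none of these 4 did a probe set pass the test.

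**Figure D4:**
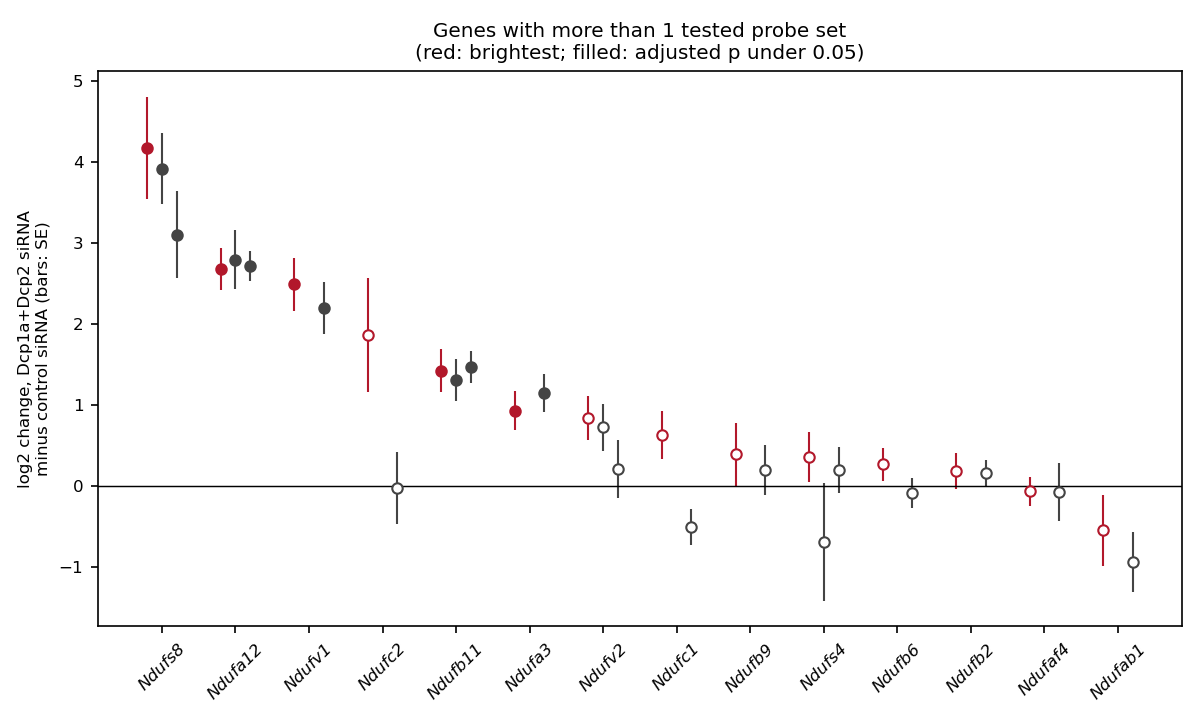
Log2 change, Dcp1a+Dcp2 siRNA minus control siRNA, of every tested probe set of the 14 complex I genes with more than 1; red marks the brightest probe set of a gene, filled points have an adjusted p under 0.05, and bars are standard errors of the limma fit. All 13 points of Ndufs8, Ndufa12, Ndufv1, Ndufb11 and Ndufa3 are filled, 5 of them (Ndufs8 and Ndufa12) from probe sets tested only through the Dcp1a+Dcp2 siRNA arrays, and Ndufc2, Ndufc1, Ndufs4 and Ndufb6 have points on both sides of 0.

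The called members were mostly dim on the arrays that did not receive both siRNAs. By the mean log2 intensity over the 6 single-siRNA arrays, whose means do not enter the comparison with control, 5 of 9 members between 5 and 7 were higher, with a median change of 2.10 (9.63% of all tested genes in that range). Between 7 and 9 it was 3 of 12 (5.88%), between 9 and 11 it was 1 of 6 (3.14%), and above 11 it was 0 of 4 (1.07%). The other 3, Ndufs8, Ndufa9 and Ndufb10, lay under 5. Probe sets differ in their response, so these levels do not rank transcripts by abundance. The ranges were chosen with the values known and were not tested.

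**Figure D5:**
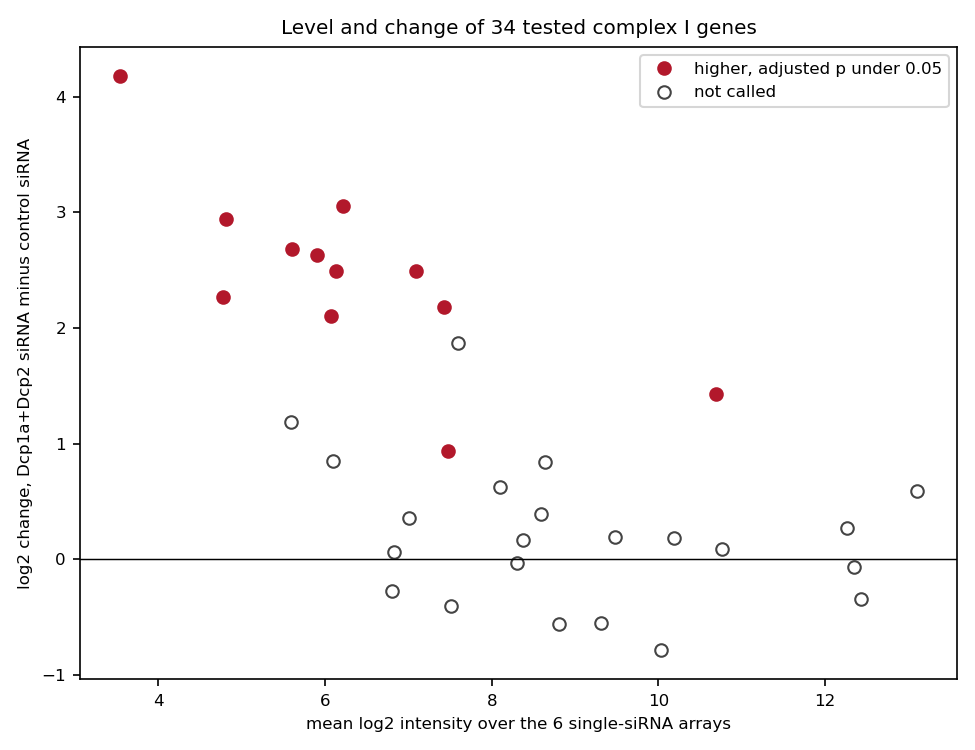
Mean log2 intensity over the 6 single-siRNA arrays against the log2 change, Dcp1a+Dcp2 siRNA minus control siRNA, for the 34 tested complex I genes; filled points have an adjusted p under 0.05. Of the 12 filled points, 8 lie under a level of 7, and Ndufb11 is the 1 above 9.

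Promoter sequence was compared as a description. The patterns and the promoters shown were chosen with the array values known. RefSeq promoters were matched for 39 of the 44 genes and searched on both strands for 8 patterns named after factors of respiratory genes: the palindrome of nuclear respiratory factor 1 in an exact form and with 1 free base, which contains the exact form, CCGGAAG (ETS), AAGATGG and ATGGCGG (YY1, which can overlap), CCAAT (the CCAAT box), GGGCGG (GC box) and TCAAGGTCA (estrogen-related receptor). AAGATGG was in 7 of 39 genes, 3 of them called, and in 6.34% of all 32851 promoters. ATGGCGG was in 9, with 2 called (4.05%), and the printed promoters of Ndufs7 and Ndufa9 hold both as AAGATGGCGG. The ETS pattern CCGGAAG was in 6, with 2 called, among them Ndufs8 on the reverse strand (8.86%). The exact palindrome was in 2, Ndufaf4 and Ndufaf5, with 0 called (0.971%), and its freer form in 7, with 1 called (4.6%). GGGCGG was in 21, with 4 called (35.7%), CCAAT in 13, with 3 called (37.4%), and TCAAGGTCA in 0 (0.423%). The GC content of the promoters had a median of 56.3% in 11 called members and 60.7% in 21 tested members that were not called, against 52.8% over all genes with a promoter.

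Other genes of complex I carry no Nduf symbol, and 13 of them, from a list that holds mitochondrially encoded subunits and further assembly factors, were on the array. Of these 6 were tested, and 1 was higher after both siRNAs (6.78% of all tested genes). It was Dmac1, a factor of membrane-arm assembly, which read 153, 192 and 169 units in Dcp1a+Dcp2 siRNA eggs and 71, 78.3 and 138 in control siRNA eggs (log2 change 0.90 ± 0.24, limma adjusted p = 0.0444). ND5, a proton-pumping core subunit encoded by mitochondrial DNA, read 31544, 36187 and 22914 in Dcp1a+Dcp2 siRNA eggs and 25360, 16830 and 8230 in control siRNA eggs, and its change of 0.97 ± 0.48 did not pass (adjusted p = 0.213). Ecsit, Foxred1 and Tmem126b stood at about the floor on all of these arrays.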

How the data were processed

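RNA of 30 eggs per array was amplified and labelled with the Affymetrix small-sample protocol, per the labels. The authors deposited 1 linear intensity per probe set and array, made with GCRMA per the submitters' processing notes. Its version was not given in the sources used here, and it corrects background by probe sequence and normalizes between arrays, so values are relative within an array and dim ones gather at a floor. Arrays have no read depth, and their number limits the precision.

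Intensities as deposited were taken to log2. Of 45037 probe sets that are not controls, 11593 passed the filter and were fitted together in limma 3.58.1 (R 4.3.3, lmFit and eBayes) on 4 group means over 12 arrays, with two-sided tests, Benjamini-Hochberg adjustment and a threshold of 0.05. Genes were named from the platform annotation, leaving out probe sets with several symbols. Folds are bounds where the mean or median control log2 value was at or under 5. A bound takes, per array, the higher of 5 and the measured value. Errors are standard errors of the fit. The fit was tested on simulated data. The members, roles, lists and alternatives were chosen with earlier results of these data known. Values per array are given for the members called against control, the 5 brightest, those with a change below 0, those with discordant probe sets and those nearest the threshold. The alternatives covered scaling, filters, the variance, array weights, a replicate block, single arrays left out and the choice of probe set.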

Additional observations from a re-analysis of the deposited data

Results flagged for a closer look

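The change after both siRNAs differed from the sum of the single changes, by a test of that difference (limma interaction term), in 12 Nduf genes. The log2 departures, which have no array of their own, were 4.07 for Ndufs7, 3.65 for Ndufb7, 3.24 for Ndufv1, 3.10 for Ndufa2, 2.85 for Ndufa12, 1.71 for Ndufb11, 1.67 for Ndufs3, 1.62 for Ndufv2 and 1.44 for Ndufa8. For Ndufs8, Ndufa9 and Ndufb10 the fit gave 4.82, 3.49 and 2.13, but these are neither measured sizes nor bounds, since most of their values without both siRNAs lay under 32 units and they were tested only through the Dcp1a+Dcp2 siRNA arrays. With intensities under 32 set to 32 the terms were 3.16 for Ndufs8, 3.28 for Ndufa9 and 1.95 for Ndufb10 (limma adjusted p from 0.000545 to 0.00129).

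Probe sets annotated with several symbols, 1 of them Nduf, were outside the comparisons. Of 10 such probe sets 5 were tested, and 3 were higher in Dcp1a+Dcp2 siRNA eggs than in control siRNA eggs (6.62% of all tested probe sets). Which of their genes gave the signal was not tested.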

How the results depend on the processing

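No called change of a named Nduf gene turned its direction under any of the 26 alternatives to the comparison of Dcp1a+Dcp2 siRNA with control siRNA. Ndufs8, Ndufa9, Ndufa12, Ndufa8, Ndufb10 and Ndufv1 kept their calls in all 26, Ndufb7, Ndufb11 and Ndufv3 in 25, Ndufs7 in 24, Ndufa2 in 21 and Ndufa3 in 12. Ndufs8, Ndufa9 and Ndufb10 were tested only through the Dcp1a+Dcp2 siRNA arrays and so had to differ. That they kept their calls is no evidence. With the variance taken from the groups compared alone, 6 members were called (1.95% of all tested probe sets higher and 0.44% lower). Without the filter on low values the count was 9 against Dcp2 siRNA (1.03% higher and 0.0533% lower) and 4 for the interaction (0.344% and 0.0111%), with more genes tested. limma's default array weights stopped without converging and gave 1 array a weight of 56.1. They gave 29 calls against Dcp1a siRNA (25 higher, 4 lower; of all probe sets 27.5% higher and 41.9% lower), 24 against Dcp2 siRNA (20 higher, 4 lower; 36.2% and 20.4%) and 4 for Dcp2 siRNA against control (2 higher, 2 lower; 5.01% and 10.1%). Weights by the gene-by-gene method, added after those counts were seen, gave 27 against Dcp1a siRNA (23 higher, 4 lower; 23.8% and 37.2%). Without control siRNA replicate 1 and Dcp2 siRNA replicate 2, 1 member was called for Dcp1a siRNA against control (4.66% of all tested probe sets higher and 0.75% lower). For Dcp2 siRNA against control 6 were called (8.78% and 12.1%). The cause was not tested.

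With each array left out in turn, calls ran from 10 to 15 for both siRNAs against control, from 0 to 1 for Dcp1a siRNA (1 without control siRNA replicate 1), from 0 to 0 for Dcp2 siRNA, from 12 to 17 against Dcp1a siRNA, from 9 to 16 against Dcp2 siRNA (9 without Dcp1a+Dcp2 siRNA replicate 2) and from 7 to 16 for the interaction. The share of all tested probe sets called higher ran from 3.17% to 15.7% for both siRNAs against control. It ran from 0% to 2.86% for Dcp1a siRNA and from 0% to 1.62% for Dcp2 siRNA. Against Dcp1a siRNA it was 5.19% to 9.34%, against Dcp2 siRNA 3.95% to 7.1%, and for the interaction 2.17% to 4.71%. The deviations of same-numbered arrays correlated at r over 0.1 in 9 of 18 pairs (r from -0.69 to 0.39). With 3 arrays per group this cannot settle whether the numbers pair them, and the labels do not say. The main fit used no pairing. A replicate block gave 11, 0, 0, 13, 13 and 9 calls in the same order. The shares of all tested probe sets called higher were 5.43%, 0%, 0%, 6.9%, 5.12% and 2.85%. Over all probe sets, both siRNAs against control gave 768 higher and 243 lower, and 699 and 364 after median centring, which moved the median of all probe sets for Dcp2 siRNA against control to 0.07, from -0.11. The floor limits what dim members can show.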

Other observations

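Genes of the other respiratory complexes were set beside the Nduf genes for the same comparison. Of 38 genes of complexes II to V on the array, 35 were tested, and 11 were higher and 0 lower in Dcp1a+Dcp2 siRNA eggs than in control siRNA eggs (limma, adjusted p under 0.05), with a median log2 change of 0.51. Among the called genes measured above the floor in control siRNA eggs, the largest folds were those of the complex III subunit Uqcrq, 5.52-fold higher (adjusted p = 0.00226), the complex IV subunit Cox4i1, 4.16-fold higher (adjusted p = 0.000666), and the ATP synthase subunit Atp5j2, 3.94-fold higher (adjusted p = 0.00168). Atp5g1, another ATP synthase subunit, was near the floor in control siRNA eggs and at least 3.38-fold higher (limma adjusted p = 1.6e-05). Like Sdhb, Uqcr11, Cyc1 and Atp5o, which were also called, it was tested only through the Dcp1a+Dcp2 siRNA arrays. Such genes had to differ, and the count for complexes II to V was not taken again without them. Of 76 mitochondrial ribosomal protein genes on the array, 56 were tested, 13 were higher and 1 was lower, with a median of 0.28. Over all 6996 tested genes the shares for this comparison were 6.78% higher and 1.64% lower. Both lists were chosen with earlier results of these data known, and the difference from the Nduf genes was not tested.

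Among 12 regulators of mitochondrial gene expression, 7 were tested and 3 were higher after both siRNAs (6.78% of all tested genes). Tfb1m, which methylates mitochondrial ribosomal RNA, read 367, 266 and 349 units in Dcp1a+Dcp2 siRNA eggs and 66.8, 74.5 and 194 in control siRNA eggs (log2 change 1.71 ± 0.34, limma adjusted p = 0.0108). Nrf1, a transcription factor of respiratory genes, changed by 1.22 ± 0.31 (adjusted p = 0.0341), and Polrmt, the mitochondrial RNA polymerase, by 1.06 ± 0.25 (adjusted p = 0.0223). Tfam, Esrra, Gabpa and Ppargc1a were at or near the floor and were not tested. Gene spans had a median of 5062 bases in the 12 called Nduf genes and 8614 bases in the 22 tested ones that were not called, a description with no test.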
